A study of Mus musculus with 18 samples.

Results

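*Fgf5*, *Pou3f1*, *Otx2*, *Sox11*, *Sox4*, *Zic2* and *Wt1* are 7 genes of the formative and primed states of pluripotency, taken by name from the 18659 genes of the table of all replicate sets. They were followed across the 16 RNA-seq libraries of E14 mouse embryonic stem cells (mESCs), a male line grown in serum and LIF on gelatin, after 24 h of siRNA against *Stag1*, which encodes a subunit of cohesin. Set 1 held 1 library of scrambled siRNA (scr) and 3 of SP, a commercial pool of *Stag1* siRNAs, here called 1a, 1b and 1c. Sets 2 and 3 each held scr, SP, 3p (a pool toward the 3′ end of the *Stag1* mRNA), 5p (a custom duplex to its 5′ end) and SATS (enzymatically prepared siRNA to an upstream leader of *Stag1*), with untreated cells in set 2 and luciferase siRNA in set 3. All cells were the same line without a deletion or transgene, and the sources used here do not say whether the libraries 1a to 1c came from separate transfections. In these bulk RNA samples, fewer cells with a transcript and less of it per cell cannot be told apart.

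Pluripotent cells pass from a naive state, close to the early epiblast, through a formative state to a primed state that is ready to form the germ layers. *Otx2* and *Pou3f1* (also called Oct6) encode transcription factors that redirect the pluripotency network along the way, and *Fgf5* encodes a secreted growth factor that is a classic marker of the epiblast after implantation. mESCs in serum are known to be a mixed population, and some of the cells drift toward the later states. *Sox4* and *Sox11* encode closely related SoxC factors, *Zic2* a zinc-finger factor active at enhancers of primed cells, and *Wt1* a zinc-finger factor best known from kidney and gonad.

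Promoter windows from RefSeq (GRCm38.p6, 250 bases before and 50 after a transcript start) matched 4 of the 7 genes, with 7 windows in all, 4 of them for *Otx2*. Those of *Fgf5*, *Sox4* and *Sox11* are shown because *Fgf5* and *Sox4* carry the calls described below, and *Sox11* is the SoxC relative whose values in SP of sets 2 and 3 lay on the other side of scr from those of *Sox4*. Capitals mark TATAAA and CCAAT on either strand (ATTGG is CCAAT read on the other strand). The windows lie at chr5:98253934-98254233 on the plus strand for *Fgf5*, chr13:28953650-28953949 on the minus strand for *Sox4* and chr12:27342669-27342968 on the minus strand for *Sox11*.
Fgf5: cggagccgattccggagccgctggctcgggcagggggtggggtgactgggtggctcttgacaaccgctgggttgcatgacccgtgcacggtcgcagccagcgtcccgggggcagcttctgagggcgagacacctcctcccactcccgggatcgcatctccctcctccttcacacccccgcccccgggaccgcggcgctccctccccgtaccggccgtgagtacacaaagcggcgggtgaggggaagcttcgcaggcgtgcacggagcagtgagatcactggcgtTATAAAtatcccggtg
Sox4: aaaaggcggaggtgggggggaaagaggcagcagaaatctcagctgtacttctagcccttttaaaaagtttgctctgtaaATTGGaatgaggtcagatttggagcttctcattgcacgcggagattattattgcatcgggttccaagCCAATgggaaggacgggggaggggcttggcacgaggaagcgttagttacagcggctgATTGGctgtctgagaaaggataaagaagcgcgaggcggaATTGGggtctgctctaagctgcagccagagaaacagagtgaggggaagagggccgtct
Sox11: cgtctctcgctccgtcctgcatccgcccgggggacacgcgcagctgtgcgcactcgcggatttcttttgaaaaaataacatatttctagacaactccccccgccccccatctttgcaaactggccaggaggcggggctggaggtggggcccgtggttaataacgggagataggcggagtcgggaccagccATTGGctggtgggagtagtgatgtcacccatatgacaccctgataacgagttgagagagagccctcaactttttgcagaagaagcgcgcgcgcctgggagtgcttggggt

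The *Fgf5* window held 1 TATAAA, a motif of 13.6% of the 32851 windows, and no CCAAT. The *Sox4* window held 4 matches to CCAAT and that of *Sox11* held 1. At least 1 match was found in 37.4% of all windows, and 4 or more in 1.06%. The GC box GGGCGG, in 35.7% of all windows on either strand, occurred 1 time for *Fgf5* and 2 times for *Sox11*, and no match was found for *Sox4*. The octamer ATGCAAAT, read by POU factors and present in 1.74% of all windows, was in none of the 7 windows of these genes. CG dinucleotides numbered 29 for *Fgf5*, 21 for *Sox11* and 12 for *Sox4*, against a median of 7, and 12.9% of all windows held at least as many as *Fgf5*. The motifs were chosen as textbook promoter elements, and a match describes the letters only.

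In the GENCODE annotation of GRCm38, *Fgf5* lies on chromosome 5 from 98254184 to 98277030 on the plus strand, and *Wt1* on chromosome 2 from 105126529 to 105173616 on the plus strand. *Pou3f1* (chromosome 4, 124656807 to 124660655, plus), *Sox11* (chromosome 12, 27334264 to 27342574, minus) and *Sox4* (chromosome 13, 28948919 to 28953713, minus) each have 1 annotated transcript of 1 exon. *Otx2* spans chromosome 14 from 48657677 to 48673819 on the minus strand, and *Zic2* lies on the same chromosome from 122475435 to 122479852 on the plus strand. *Otx2* overlaps the antisense RNA Otx2os1 over 5112 bases, and Wt1os starts 19 bases from *Wt1*. Gm2164 and Gm26735, antisense RNAs that overlap *Pou3f1* and *Sox4*, were not analysed here. Use of strand in counting is stated for paired-end samples only. Otx2os1 had at most 5 reads in a library and Wt1os at most 15, so few reads were assigned to these antisense genes.

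All libraries were checked on *Stag1*. Its level, as a percentage of scr of the same set, was 17.3% to 32.8% in the 9 libraries of SP, 3p and 5p, 49.7% to 50.5% in SATS and 86.3% to 104% in the untreated and luciferase libraries. Values are reads divided by a size factor of each library (normalized values). Depth in the 4 libraries of set 1 was 9023224 to 14040830 reads, of which 1883691 to 4321867 remained without the ribosomal transcript Rn45s, and 1 read was worth 3.22 to 8.05. For the 12 libraries of sets 2 and 3 depth was 32137666 to 45660840 reads, or 25978759 to 36332493 without Rn45s, and a read was worth 0.353 to 0.479. Counting error was therefore far larger in set 1, and counting intervals below (95%, exact Poisson, or exact binomial for a ratio) cover counting error only.

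All 7 genes were expressed at a mean of at least 50 over the 16 libraries, as were the 8 defining genes of mESCs (*Pou5f1*, *Sox2*, *Nanog* and others). Compared per kilobase of annotated exon in the 3 scr libraries (normalized value per kb, mean ± SD, n = 3), the order of levels was *Zic2* at 261 ± 116, *Pou3f1* at 203 ± 152, *Sox4* at 176 ± 9.77, *Sox11* at 162 ± 90.2, *Otx2* at 114 ± 67.5, *Fgf5* at 54.3 ± 56.2 and *Wt1* at 19.0 ± 8.02. No 2 neighbours in this order differed by more than the larger of their SDs. *Sox4* was the steadiest of the 7, and its highest scr library was 1.12 times its lowest. For *Pou3f1* that ratio was 7.95, for *Fgf5* 6.36, for *Otx2* 4.32, for *Sox11* 3.38, for *Wt1* 2.48 and for *Zic2* 2.37.

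**Figure D1:**
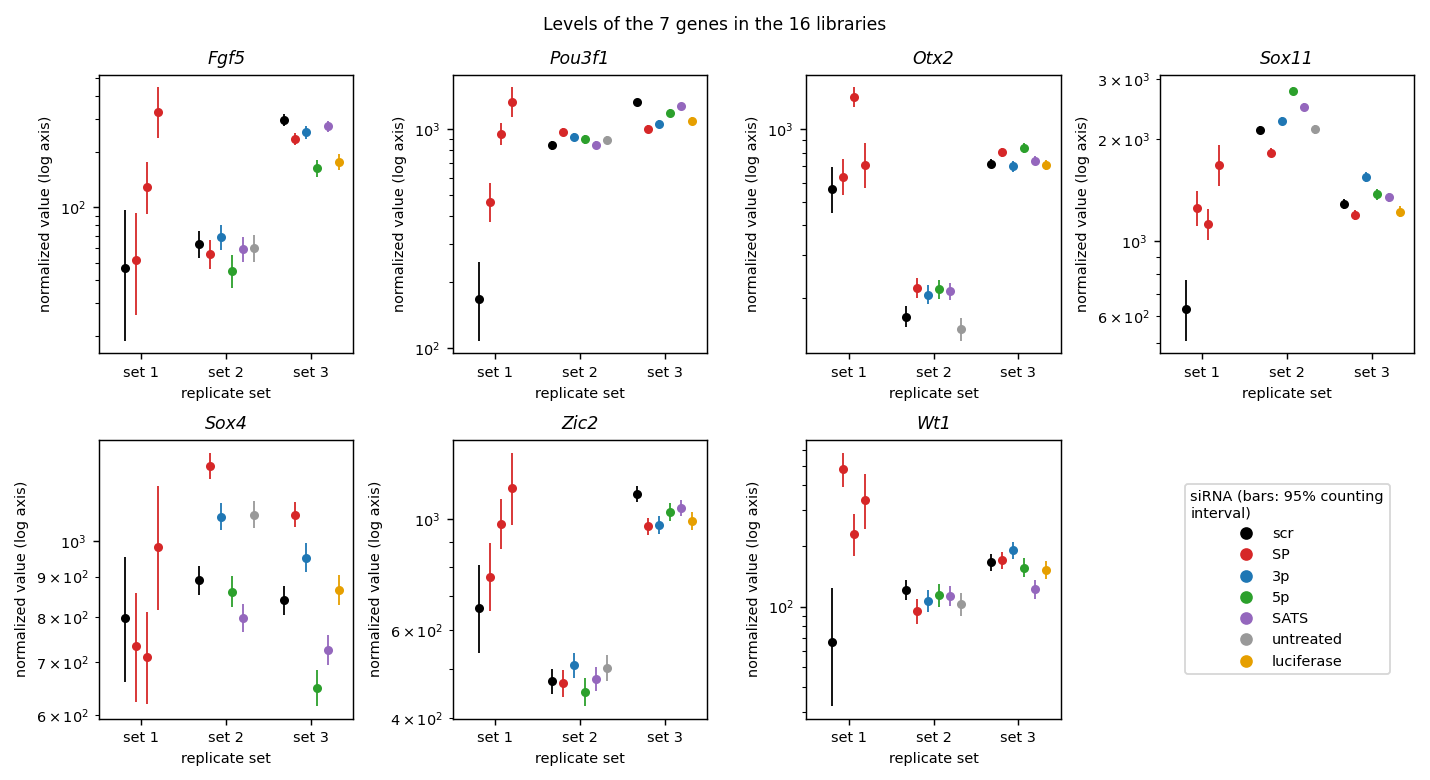
Normalized value (log axis) of each gene in the 16 libraries, by replicate set and siRNA, with 95% exact Poisson intervals of the reads. *Fgf5*, *Otx2* and *Zic2* sit higher in set 3 than in set 2 in every library, whereas *Sox4* lies between 649 and 1247 in all sets.

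For 6 of the 7 genes the ranges of sets 2 and 3 did not overlap, which also held for 30.2% of the 11058 genes with a mean of 50 or more. The median over the 6 libraries of set 3 was 4.12 times that of set 2 for *Fgf5*, 3.49 times for *Otx2* and 2.12 times for *Zic2*. *Wt1* (1.47 times) and *Pou3f1* (1.27 times) were also higher in set 3, and *Sox11* was lower (0.600 times). *Sox4* had a ratio of 0.868, and its ranges of 798 to 1247 in set 2 and 649 to 1079 in set 3 overlapped. Within a set, the differences of the 7 genes from scr ran from -0.87 to 0.48 on the log2 scale in sets 2 and 3. Cells of different sets differ in more than the siRNA, and what sets them apart cannot be told from these libraries.

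The first question was whether the genes of the later states changed in SP, and the 3 SP libraries of set 1 are given singly. *Fgf5* had a normalized value of 46.9 in scr of set 1, which rested on 7 reads, and of 51.7 in 1a, 129 in 1b and 330.2 in 1c. The value of 1a lay beside that of scr, and 1c was 7.04 times scr (95% counting interval 3.13 to 18.6). In sets 2 and 3 *Fgf5* was 55.6 and 235 in SP against 62.9 and 298 in scr, so both SP libraries lay below scr there.

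*Pou3f1* was at 167 (25 reads) in scr of set 1 and at 465, 952 and 1337 in 1a, 1b and 1c, all above scr, with ratios of 2.78 (1.78 to 4.50), 5.69 (3.78 to 8.93) and 7.99 (5.22 to 12.7). In SP of set 2 the value was 975 against 843 in scr, and in SP of set 3 it was 1005 against 1331. The 2 sets thus lay on opposite sides of scr. The scr library of set 1 had the lowest *Pou3f1* of all 16 libraries, and also the lowest *Sox11* (629) and *Wt1* (67.0). Among the 11058 genes it was lowest for 17.0%.

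*Otx2* was at 563 in scr of set 1 and at 635, 1357 and 709 in 1a, 1b and 1c. Library 1b was apart from the other two, with 2.41 times scr (1.90 to 3.09), and the intervals of 1a and 1c included a ratio of 1. With 219 against 167 in set 2 and 800.2 against 719.6 in set 3, *Otx2* was above scr in all 5 SP libraries. It was the only one of the 7 genes for which this held, against 9.07% of the 11058 genes with a mean of at least 50, a rule chosen after the values were seen.

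The SoxC genes did not share a pattern in set 1. *Sox11* was at 629 in scr and at 1250.4, 1122 and 1675 in 1a, 1b and 1c, all above scr, with ratios of 1.99 (1.56 to 2.54), 1.78 (1.42 to 2.26) and 2.66 (2.08 to 3.43). *Sox4* was at 797 in scr and at 733, 711 and 983 in the SP libraries, which lay on both sides of scr with intervals that all included a ratio of 1. In SP of sets 2 and 3 the genes lay on opposite sides of scr. *Sox11* was below scr in SP of both sets, at 1825 against 2126 and 1193 against 1290.4, and *Sox4* was above scr in both, at 1247 against 890.4 and 1079 against 839.

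Among the zinc-finger genes, *Zic2* was at 663 in scr of set 1 and at 766, 978 and 1152 in 1a, 1b and 1c, and the ratio of 1a, 1.16, had a counting interval that included 1. *Wt1* was at 67.0 (10 reads) in scr and at 479, 228 and 338 in the SP libraries, or 7.16 (3.74 to 15.4), 3.41 (1.75 to 7.42) and 5.05 (2.49 to 11.3) times scr. In SP of sets 2 and 3 *Zic2* was at 469 against 473 and 966 against 1120.6 in scr, and *Wt1* at 94.8 against 121 and 169 against 166. The high values of *Wt1* were thus found in set 1 alone among the SP libraries.

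**Figure D2:**
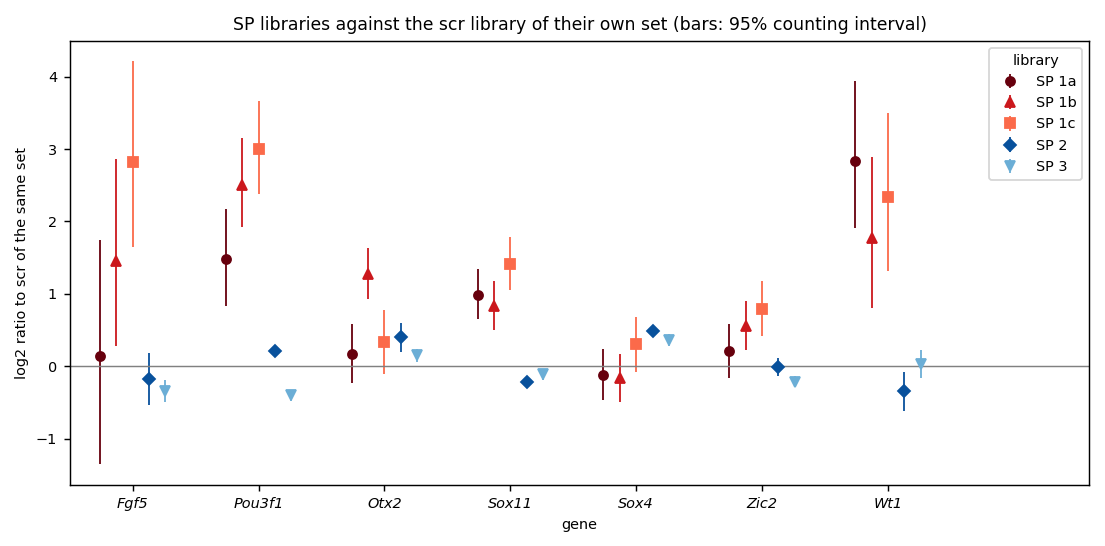
Log2 ratio of each SP library to scr of its own set, with 95% exact binomial counting intervals. *Pou3f1*, *Sox11* and *Wt1* lie above 0 in all 3 libraries of set 1 and at -0.40 to 0.21 in sets 2 and 3, and *Sox4* lies above 0 in sets 2 and 3.

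*Pou3f1* and *Wt1* were at least 2-fold above scr in each of the 3 SP libraries of set 1, as were 1.52% of the 11058 genes. 6 of the 7 genes, all but *Sox4*, were above scr in each of these libraries, as were 28.3% of the 11058 genes. The 7 genes were chosen with earlier results of these data known, so setting them beside these shares is no test. The 3 libraries share 1 scr library, so an unusual value in that library moves all 3 ratios together, and set 1 alone allows no test. The separate table of set 1, in which the authors scaled the counts to CPM, moved the log2 differences of the 7 genes by at most 0.032 and changed no sign. Over the 7 genes the median log2 difference was 0.21 in 1a, 1.27 in 1b and 1.41 in 1c, and -0.01 and -0.11 in SP of sets 2 and 3, beside medians of -0.0025 to 0.024 over the 11058 genes.

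Over 3 sets, with 1a to 1c averaged to 1 sample, all 7 fitted differences of SP from scr were above 0, from 0.11 (SE 0.40) for *Zic2* to 0.75 (SE 0.70) for *Pou3f1* on the scale of log2(normalized value + 1). None passed limma's test with Benjamini-Hochberg adjustment (adjusted p = 1.0 for each of the 7). Calls over all genes came to 0% (0 of 15970), with 84 genes and none of the 7 at an unadjusted p under 0.05, and edgeR on the recovered reads also called 0 genes. In edgeR, where the reads of 1a to 1c were summed, *Fgf5* was at 0.0021, *Pou3f1* at 0.24 and *Sox11* at 0.066. limma had these genes at 0.44, 0.75 and 0.25. The others were at 0.066 (*Zic2*), 0.29 (*Sox4*), 0.48 (*Otx2*) and 0.67 (*Wt1*) in edgeR. When the set was fitted as a block, limma again called 0% of genes (0) and edgeR called 0.451% (72), with no gene of the 7 among them. In the blocked limma fit *Otx2* (0.41, SE 0.13) and *Sox4* (0.29, SE 0.11) had an unadjusted p under 0.05, with an adjusted p of 0.759 for both. In that fit 935 of the 15970 genes had an unadjusted p under 0.05.

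The difference between the sets was tested directly as the SP effect in set 1 minus that in sets 2 and 3. It was 2.46 (SE 0.57) for *Wt1*, 2.42 (SE 0.74) for *Pou3f1* and 1.24 (SE 0.30) for *Sox11*, with unadjusted p of 0.00559, 0.0185 and 0.00671, and -0.42 (SE 0.28) for *Sox4*. None passed adjustment in limma (adjusted p = 0.653 for these 3), and neither did any other gene (0% of 16346, with 1158 at an unadjusted p under 0.05). edgeR also called 0 genes, with 3 of the 7 and 881 of all 16346 genes at an unadjusted p under 0.05. Libraries 1a, 1b and 1c entered this fit singly, as if they were separate samples, which the sources do not state. The SEs and p-values therefore rest partly on the spread among 1a to 1c, which may be technical. The lone scr library of set 1 is assumed in this fit to vary like the others. Leaving out library 1a, 1b or 1c in turn left 0 genes called.

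Other genes of these states were examined from a list of 18. In 1a, 1b and 1c 12, 11 and 12 of them were above scr, with medians of 0.34, 0.47 and 0.93 on the log2 scale, and in SP of sets 2 and 3 11 and 6 were above scr, with medians of 0.08 and -0.24. *Dnmt3b*, the de novo DNA methyltransferase that rises on exit from the naive state, was at 3897 in scr and at 5519, 10041 and 9761 in 1a, 1b and 1c, all above scr. *Dnmt3a*, its relative, was at 2391 in scr and at 3328, 2775 and 2762. *Sall2*, *Pim2* and *Lef1*, the latter a transcription factor of the Wnt pathway, were also above scr in all 3, for *Lef1* with 342 in scr and 691, 1225 and 894. *Tcf15* and *Nodal* were below scr in all 3, at 451, 293 and 298 against 583 and at 771, 859 and 838 against 1071. No gene of the list passed the test over 3 sets.

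Genes of other states also stood off scr in set 1. Of 14 naive genes, 13 were below scr in each of 1a, 1b and 1c, with medians of -0.62, -1.19 and -1.53, and 13 and 12 were below scr in SP of sets 2 and 3, with medians of -0.21 and -0.47. Of the 8 genes of mESC identity 2, 1 and 0 were above scr in 1a, 1b and 1c, with medians of -0.27, -0.33 and -0.63. The 8 genes of primitive endoderm had medians of -0.38, -1.85 and -2.67 in 1a, 1b and 1c, with summed values of 589 to 1716 against 2163 in scr and 2, 0 and 1 of the 8 above it. In SP of sets 2 and 3 8 and 5 of them were above scr, with medians of 0.17 and 0.28. Of these, the defining genes *Gata6* and *Sox17* were at 100 and 46.9 in scr and at 8.05 and 0 in 1c, where 8.05 is the value of 1 read. The 1 gene of the list above scr in 1c was *Sox7*, at 40.3 against 40.2. The summed level of 8 neural genes was 1681 in scr and 1708 to 3286 in SP of set 1, that of 8 mesoderm genes 154 against 119 to 435, and that of 8 fibroblast genes 275 against 148 to 564. In sets 2 and 3 the sums ran from 3017 to 5349 (neural), 1262 to 4784 (primitive endoderm), 433 to 646 (mesoderm) and 447 to 5834 (fibroblast). Single genes made up much of such sums. In scr of set 1 *Tubb3* was 1018 of the neural 1681, and *Col4a1* was 1574 of the primitive endoderm 2163. In 1c *Nes* was 1884 of the neural 3286, and *Col1a1* was 282 of the fibroblast 564. In set 1 *Pax3*, *Gsc*, *Prrx1* and *Lum*, defining genes of the neural, mesoderm and fibroblast lists, were at 0 in all 4 libraries. Their means over the 16 libraries were 5.33, 3.14, 7.95 and 0.546, and 1 read in set 1 was worth 3.22 to 8.05. A value of 0 in set 1 therefore does not show that these genes were absent. Other genes of these lists had reads in set 1. *Nes* was at 208 in scr and at 329, 531 and 1884 in 1a, 1b and 1c, all above scr, and *Pax6* at 154 and at 301, 222 and 322. *T* was at 6.70 in scr and at 4.70, 19.3 and 137, and *Col1a1* at 60.3 and at 32.9, 16.1 and 282, so that both were highest in 1c. The part of these other cells in the values of the 7 genes was not tested.

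**Figure D3:**
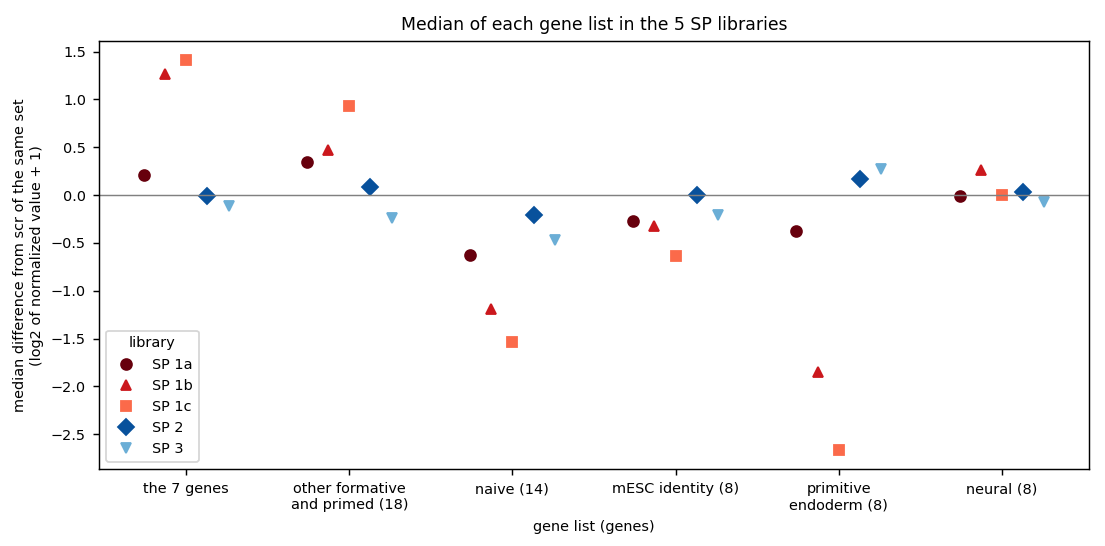
Median log2 difference from scr of the same set over the genes of 6 lists, in each of the 5 SP libraries. The medians of the 7 genes and of 18 others of these states reach 1.41 and 0.93 in library 1c, where those of naive and primitive endoderm genes are at -1.53 and -2.67.

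The next question was how each of the 4 siRNA reagents moved the genes within sets 2 and 3, where each was compared with the same 2 scr libraries. The methods list the siRNAs of 3p under number endings that also occur in the SP pool, so SP and 3p may share siRNAs. Without a block, limma called none of the 7 genes in any of these comparisons. The share of all 16490 genes called was 0.00606% for SP (1 gene, *Stag1*), 0.00606% for 3p (1 gene, *Stag1*), 0.0121% for 5p (2 genes) and 0% for SATS (0 genes, with 650 at an unadjusted p under 0.05 and 0 called by edgeR). For 5p against 3p it was also 0% (674 genes at an unadjusted p under 0.05 and 0 called by edgeR). Of the 7 genes, *Sox4* alone had an unadjusted p under 0.05, at 0.0270 for SP and 0.0246 for 5p against 3p. For SP, 410 of all genes had an unadjusted p under 0.05.

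Libraries of the same set deviated together, so the set was also fitted as a block. It then called 0.746% of genes for SP, 0.285% for 3p, 2.37% for 5p, 2.64% for SATS and 3.26% for 5p against 3p, or 123, 47, 391, 436 and 537 genes. Of the 7, 1 was called for SP, 0 for 3p, 1 for 5p, 0 for SATS and 2 for 5p against 3p. The unadjusted p was under 0.05 for 2 of the 7 in SP, 1 in 3p, 4 in 5p, 0 in SATS and 2 in 5p against 3p. Among all 16490 genes it was under 0.05 for 2061, 1720, 2595, 3108 and 2610 in the same order.

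*Fgf5* fell in 5p. In set 2 it was at 44.9 in 5p and at 55.6 in SP, 58.9 in SATS, 60.0 in untreated cells, 62.9 in scr and 68.6 in 3p. In set 3 it was at 162 in 5p, 175 in luciferase, 235 in SP, 255 in 3p, 274 in SATS and 298 in scr. 5p was the lowest of its set in both sets, which among the 7 genes held for *Fgf5* alone and among the 11058 genes for 9.64%. This rule was not among the planned comparisons and only restates the position of *Fgf5* given above. The ratio of 5p to scr was 0.713 (0.545 to 0.929) in set 2 and 0.545 (0.479 to 0.620) in set 3.

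With the set as a block the difference of 5p from scr for *Fgf5* was -0.68 (SE 0.13, adjusted p = 0.0174 in limma and 0.00889 in edgeR, where 2.30% of all genes were called), and without the block it was the same with an SE of 1.18 (adjusted p = 1.0). The luciferase library of set 3, a control that left *Stag1* at 104% of scr, had 0.589 times (0.521 to 0.665) the *Fgf5* of scr, within the interval of 5p. When the untreated and luciferase libraries were counted as controls beside scr, with the block, the difference was -0.47 (SE 0.16, adjusted p = 0.0884 in limma), a fit that called 6.71% of all 16684 genes tested. Leaving out 1 library of the comparison at a time, with the block, the call held without 5p of set 2 (adjusted p = 0.0168) and was lost without scr of set 2 (0.0806), scr of set 3 (0.281) or 5p of set 3 (0.234).

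*Sox4* rose in SP. In set 2 it was at 1247 in SP, 1079.6 in untreated cells, 1073 in 3p, 890.4 in scr, 861 in 5p and 798 in SATS. In set 3 it was at 1079 in SP, 951 in 3p, 866 in luciferase, 839 in scr, 725 in SATS and 649 in 5p. The order SP, 3p, scr was the same in both sets, with 5p and SATS below scr in both. In set 2 the ratio of 5p to scr was 0.967, with a counting interval of 0.908 to 1.03 that included 1. SP and 3p may share siRNAs, so their values need not be independent. SP was the highest of its set in both sets for *Sox4* alone among the 7 genes, and for 7.18% of the 11058 genes. That rule, too, was not among the planned comparisons and only restates the position of *Sox4*.

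With the block the difference of SP from scr for *Sox4* was 0.42 (SE 0.087, adjusted p = 0.0411 in limma and 0.0394 in edgeR, where 0.879% of all genes were called). It held with the untreated and luciferase libraries added to the controls (0.34, SE 0.078, adjusted p = 0.0312 in limma), where 2.32% of all genes were called. In that fit *Sox4* also fell in 5p (-0.29, SE 0.078, adjusted p = 0.0360), beside 6.71% of all genes called. It fell in SATS too (-0.27, SE 0.078, adjusted p = 0.0393), beside 10.7% of all genes called. The untreated library by itself was 1.21 times scr. The call was lost without any one of the 4 libraries (adjusted p = 0.223 to 0.365), with differences of 0.35 to 0.50. In set 1 the difference was -0.12, -0.16 and 0.30 in 1a, 1b and 1c.

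**Figure D4:**
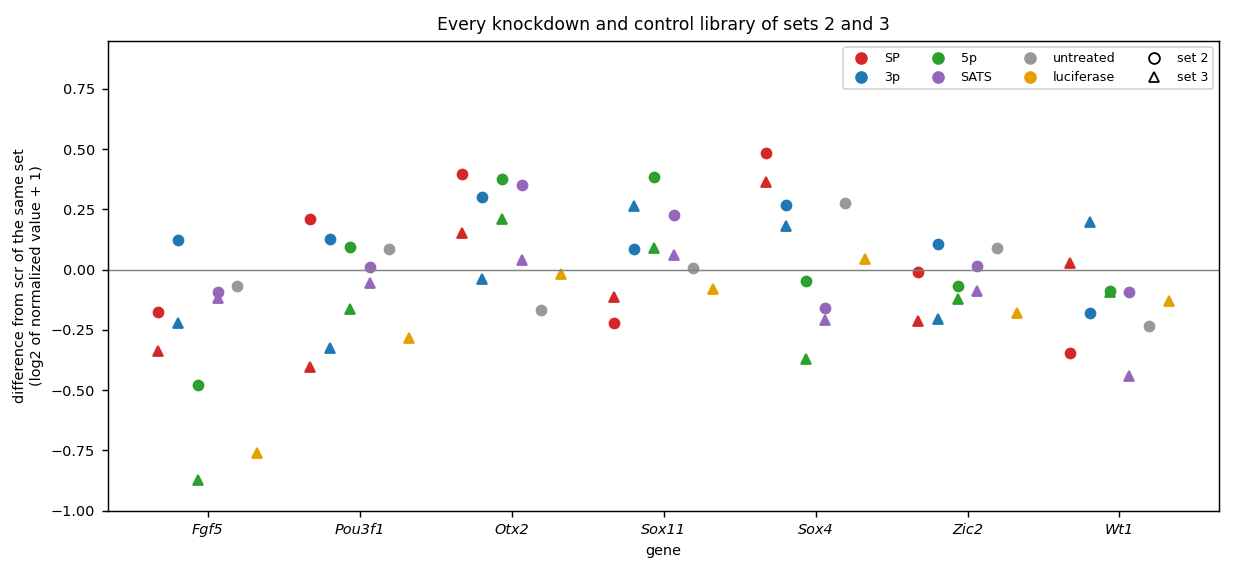
Difference of each library of sets 2 and 3 from scr of its set, on the scale of log2(normalized value + 1), with circles for set 2 and triangles for set 3. *Fgf5* is lowest in 5p in both sets, at -0.48 and -0.87, with luciferase at -0.76, and *Sox4* is highest in SP, at 0.48 and 0.36.

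5p and 3p, which target opposite ends of the *Stag1* mRNA, had a fitted difference in *Stag1* of 0.15 (SE 0.097) on the log2 scale, 5p minus 3p, which did not pass the test. Between them *Fgf5* was lower in 5p by a difference of -0.62 (SE 0.13, adjusted p = 0.0200 in limma with the block and 0.0165 in edgeR, which called 3.11% of all genes) and *Sox4* by -0.43 (SE 0.087, adjusted p = 0.0141 and 0.0163). These differences use the same 5p libraries as the comparison with scr. Both calls were lost in limma without 3p of set 3 (adjusted p = 0.0803 and 0.137) and without 5p of set 3 (0.321 and 0.294), and that of *Fgf5* also without 3p of set 2 (0.120). The remaining 5 genes had differences of -0.10 to 0.16 with SEs of 0.089 to 0.16.

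*Otx2* did not pass the test in any comparison with scr alone. In set 2 it was at 219 in SP, 206 in 3p, 216 in 5p and 213 in SATS, all above scr at 167 and untreated cells at 148. In set 3 it was at 800.2, 700.3, 833 and 739 in these knockdowns, with scr at 719.6 and luciferase at 711, so that 3p lay below both controls. The blocked difference was 0.29 (SE 0.098, adjusted p = 0.155 in limma) for 5p and 0.27 (SE 0.098, adjusted p = 0.252) for SP. With the untreated and luciferase libraries added to the controls, the difference of 5p was 0.34 (SE 0.096, adjusted p = 0.0431 in limma), in the fit that called 6.71% of all genes for 5p.

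*Sox11* and *Pou3f1* did not share a pattern. *Sox11* was at 2258 in 3p, 2774 in 5p and 2489 in SATS of set 2 against 2126 in scr and 2137 in untreated cells, and at 1548, 1374 and 1347 in set 3 against 1290.4 and 1220.3 in luciferase. These 3 reagents lay above the controls of both sets and SP below them. *Pou3f1* was at 921, 901 and 849 in 3p, 5p and SATS of set 2 against 843, and at 1061, 1189 and 1280.1 in set 3 against 1331. The libraries of set 2 lay above scr and those of set 3 below it, the controls included, with untreated cells at 896 and luciferase at 1093. None of these differences passed the test, with blocked values of -0.17 to 0.24 for *Sox11* and -0.10 to -0.023 for *Pou3f1*. With the block and the untreated and luciferase libraries added to the controls, *Sox11* in 5p was at 0.26 (SE 0.080, adjusted p = 0.0675 in limma). It did not pass there either.

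*Zic2* ran from 451.0 in 5p to 509 in 3p in set 2, with scr at 473, and from 966 in SP to 1120.6 in scr in set 3. Its blocked differences from scr were -0.11 to -0.037 with an SE of 0.089. *Wt1* ran from 94.8 in SP to 121 in scr in set 2, and from 122 in SATS to 191 in 3p in set 3. The largest blocked difference of *Wt1*, -0.27 (SE 0.16, adjusted p = 0.400 in limma) for SATS, did not pass.

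**Figure D5:**
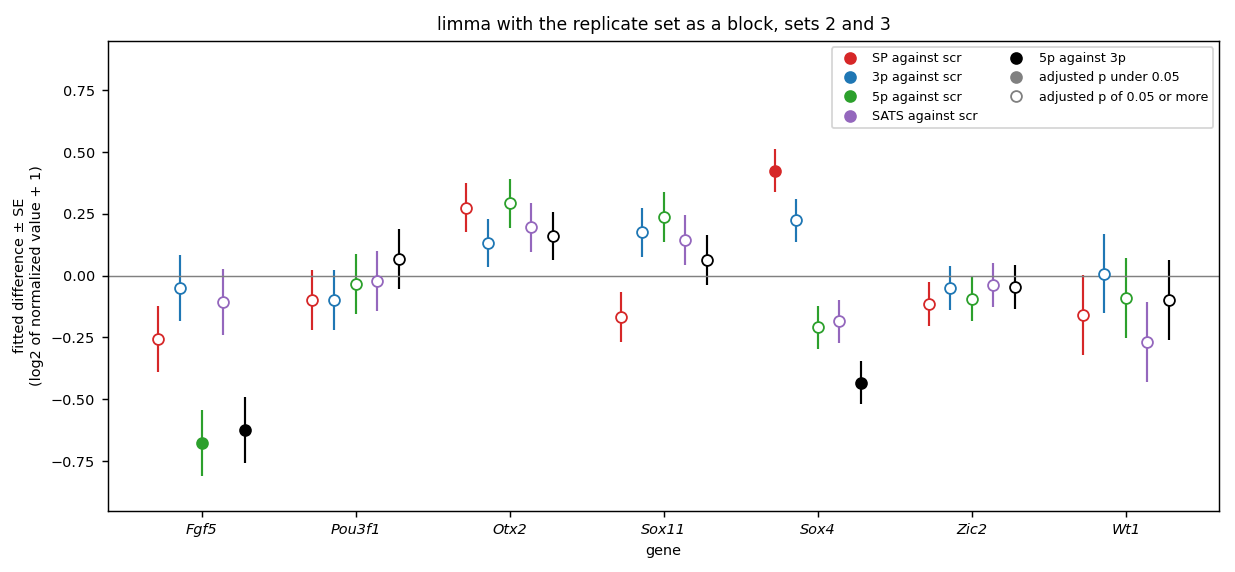
Differences ± SE from limma with the replicate set as a block, over the 10 libraries of scr, SP, 3p, 5p and SATS in sets 2 and 3, with filled points at an adjusted p under 0.05. The filled points are *Sox4* in SP, *Fgf5* in 5p and both genes in 5p against 3p.

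Around *Fgf5*, the 4 FGF receptors were led by *Fgfr1* and *Fgfr2*, with means of 1852 and 486 over the 16 libraries. With the block none was called in SP, 3p or 5p, *Fgfr4* fell in SATS (-1.09, SE 0.25, adjusted p = 0.0360 in limma) at a mean level of 25.8, and *Fgfr1* was lower in 5p than in 3p (-0.35, SE 0.081, adjusted p = 0.0293). Of 14 relatives of the 7 genes 12 could be tested in the panel, and *Fgf4*, the main FGF ligand made by mESCs, was the one called against scr. It fell in 3p (-0.88, SE 0.12, adjusted p = 0.00937) and was higher in 5p than in 3p (0.97, SE 0.12, adjusted p = 0.000880), a direction opposite to that of *Fgf5* in the same comparison. Over the tested relatives the median differences from scr lay between -0.11 and 0.062.

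Of the 17 other formative and primed genes tested in the panel, the blocked fit called 1 down in SP, 0 in 3p, 0 in 5p and 1 down in SATS. These were *Tcf15*, a factor that marks cells leaving the naive state, in SP (-0.93, SE 0.18, adjusted p = 0.0308 in limma) and *Etv4*, a target of FGF signalling, in SATS (-0.37, SE 0.085, adjusted p = 0.0369). In 5p against 3p *Lef1* was lower (-0.47, SE 0.11, adjusted p = 0.0263). Medians over the 17 genes were -0.05 for SP, -0.04 for 3p, -0.12 for 5p and -0.11 for SATS, and over the 7 genes -0.11, 0.0079, -0.090 and -0.037, beside -0.0041 to 0.012 over all genes tested.

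Of the 14 naive genes 2 fell in SP with the block, *Tfcp2l1* (-0.49, SE 0.087, adjusted p = 0.0190 in limma) and *Tbx3* (-0.52, SE 0.11, adjusted p = 0.0477), and both also fell in SATS, where *Dppa3* rose. None was called in 3p or 5p, and *Nr0b1* and *Nr5a2* were higher in 5p than in 3p. Medians over the naive list were -0.34 in SP, -0.33 in 3p, -0.02 in 5p and -0.24 in SATS. No gene of mESC identity, primitive endoderm or mesoderm was called in any blocked comparison with scr. *Nes*, a neural marker, and *Col1a1*, a fibroblast marker, fell in 5p (-0.54, SE 0.12, adjusted p = 0.0330, and -0.75, SE 0.16, adjusted p = 0.0255), and in 5p against 3p *Nes* was lower and *Col3a1* higher. The part of these lists in the values of *Fgf5* and *Sox4* was not tested.

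Genes with the most similar pattern were found by the root-mean-square distance over the 13 differences from scr, for the 6 members whose differences spanned at least 1 on the log2 scale, that is all but *Sox4* (0.85). Nearest to *Fgf5* were *Tlr2* (distance 0.27), *Epha1* (0.30) and *Nes* (0.32), against a distance of 0.95 of *Fgf5* from no difference at all. *Pou3f1* was nearest to *Crabp2* (0.23), *Chst1* (0.24) and *Nmnat1* (0.25), and *Wt1* to *Tdrd1* (0.27), *Cntfr* (0.29) and *Pou6f1* (0.32). The other 3 had as neighbours *Tango2*, *Stard5* and *Abcb1b* for *Otx2* (0.18 to 0.21), *Tax1bp3*, *Mef2a* and 9430020K01Rik for *Sox11* (0.16 to 0.17), and *Cdk2ap1*, *Dapk3* and *Aimp2* for *Zic2* (0.091 to 0.094). The 13 differences share 3 scr libraries, and the distances describe these libraries only. For *Pou3f1* and *Wt1* the differences in 1a to 1c were 1.47 to 2.99 and 1.75 to 2.82. In sets 2 and 3 they were -0.40 to 0.21 and -0.44 to 0.20. Set 1, with 25 and 10 reads in scr, thus weighs most in which genes lie nearest to these 2. The same holds for *Fgf5*, with 7 reads in scr of set 1. Its differences were 0.14, 1.44 and 2.79 in 1a, 1b and 1c, and -0.87 to 0.12 in sets 2 and 3.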

How the data were processed

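RNA depleted of rRNA was sequenced, and according to the methods the reads were aligned to mm10 with HISAT2, assigned to genes with featureCounts. The table of all sets was normalized with DESeq2 (1.14.1, per the labels), so its deposited values are a signal, the reads of a gene over a size factor. Within a library 100% of the values were whole multiples of the smallest (tolerance 0.001 reads), and whole reads were recovered from them. The deposited signal of the table of set 1 is CPM from edgeR 3.16.5. Here log2(signal + 1) was fitted with limma 3.58.1 (trend) in R 4.3.3 for every gene whose values summed to 10 or more, with calls at an adjusted p (Benjamini-Hochberg) below 0.05. The panel fit took the 10 libraries of scr, SP, 3p, 5p and SATS of sets 2 and 3. Alternatives were other pseudocounts, no filter, TMM, edgeR 4.0.16 (quasi-likelihood) on recovered reads and leaving out libraries. Labels do not state separate cultures, so p-values measure the spread between these libraries, which may be technical. Set numbers come from the labels, and deviations from the group mean were correlated within a set (panel: 20 pairs of libraries, mean r 0.86, lowest 0.81, over 11019 genes). Each panel group had 1 library per set, so deviations in sets 2 and 3 mirror each other. The pairs of set 3 therefore repeat the r of those of set 2. With 3 sets, r was 0.80 over 3 pairs (lowest 0.77). The set therefore pairs the libraries and was fitted as a replicate block. Scripts were tested on simulated data that held no difference between the sets. The replicate-block fits were not among those tested, so the simulation does not bear on their calls. The 7 genes and all lists were chosen with earlier results of these data known. Text names the 7 genes, list genes past the threshold (at most 4 per list and comparison) or examples, and the 3 genes nearest in pattern. *Sall2*, *Pim2*, *Lef1*, *Dnmt3a*, *Tcf15*, *Nodal*, *Gata6*, *Sox17*, *Sox7*, *Col4a1*, *Tubb3*, *Pax3*, *Gsc*, *Prrx1*, *Lum*, *Nes*, *Pax6*, *T* and *Col1a1* in set 1 were named after their values were seen. The 2 libraries of 2i cells were not analysed here. A result on 1 gene of the lists is not reported here.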

Additional observations from a re-analysis of the deposited data

Results flagged for a closer look

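*Otx2* in SP library 1b was set apart from the other SP libraries. Its difference from scr of set 1 was 1.27 on the log2 scale, and the gap to the next of the 5 SP libraries was 0.783 of their whole range, above Dixon's 95% critical value for 5 samples. Among 14 groups of 5 values examined this way, 7 genes by 2 measures, this was the 1 that stood out, and chance alone marks about 1 in 20. The other 4 SP libraries lay between 0.15 and 0.40, and the value of 1b rested on 422 reads.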

How the results depend on the processing

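Without a block no gene of the 7 was called under any alternative in any of the 7 comparisons, and the other pseudocounts, the absence of a filter, TMM scaling and edgeR without a block left the number of genes called in all 7 comparisons within 1.5 times the main number. The replicate block raised the genes called to 123 for SP, 47 for 3p, 391 for 5p, 436 for SATS and 537 for 5p against 3p, with 1, 0, 1, 0 and 2 of the 7 among them, and edgeR with the block to 72 for SP over 3 sets and to 145, 54, 379, 530 and 513, with the same numbers of the 7. It changed no other call of the 7. Adding the untreated and luciferase libraries to scr gave 4 genes for SP, 2 for 3p and 27 for 5p, turned *Fgf5* to 0.16 in 3p and 0.10 in SATS, *Pou3f1* to 0.016 in 5p and 0.026 in SATS and *Wt1* to 0.0014 in 5p, and gave these same values with the block. The latter, and leaving out libraries with the block, were chosen after seeing the data. With library 1a alone for set 1 the SP comparison over 3 sets called 1 gene and turned *Fgf5* to -0.13 and *Zic2* to -0.0059, and *Fgf5* was at -0.095 there in edgeR with the block. *Zic2* in 5p against 3p was at 0.0017 in edgeR without it. Leaving out 1 library at a time left 1 gene called for 5p against scr and, by construction, set single libraries of different sets against each other where no block was fitted, so that many differences changed sign. For SP over 3 sets the differences ran from -0.069 to 1.25 for *Fgf5*, -0.13 to 1.36 for *Pou3f1*, -0.23 to 1.06 for *Otx2*, -0.21 to 0.67 for *Sox11* and -0.18 to 0.45 for *Zic2*. For SP in sets 2 and 3 they ran from -1.37 to 0.85 for *Fgf5*, -0.43 to 0.23 for *Pou3f1*, -0.78 to 1.33 for *Otx2*, -0.53 to 0.19 for *Sox11*, -0.73 to 0.51 for *Zic2* and -0.57 to 0.26 for *Wt1*. For 3p the range was from -1.16 to 1.06 for *Fgf5*, -0.43 to 0.23 for *Pou3f1*, -0.92 to 1.18 for *Otx2*, -0.19 to 0.53 for *Sox11*, -0.67 to 0.57 for *Zic2* and -0.41 to 0.43 for *Wt1*. For 5p against scr it was -1.79 to 0.44 for *Fgf5*, -0.36 to 0.30 for *Pou3f1*, -0.76 to 1.34 for *Otx2*, -0.27 to 0.74 for *Sox11*, -0.72 to 0.53 for *Zic2* and -0.32 to 0.14 for *Wt1*. For SATS it was -1.22 to 1.01 for *Fgf5*, -0.35 to 0.31 for *Pou3f1*, -0.86 to 1.25 for *Otx2*, -0.30 to 0.59 for *Sox11*, -0.66 to 0.58 for *Zic2* and -0.54 to 0.0011 for *Wt1*. Between 5p and 3p it was -1.56 to 0.32 for *Fgf5*, -0.13 to 0.27 for *Pou3f1*, -0.81 to 1.13 for *Otx2*, -0.44 to 0.57 for *Sox11*, -0.64 to 0.55 for *Zic2* and -0.52 to 0.32 for *Wt1*. For the SP effect in set 1 minus that in sets 2 and 3 it was -0.021 to 0.53 for *Otx2*. Depth limits *Fgf5* and *Wt1* in set 1 most, where scr held 7 and 10 reads.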
